A study of Mus musculus with 6 samples.

Results

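Chromatin accessibility was examined at 10 genes that encode the surface receptors, and 1 intracellular adaptor, by which T follicular helper (Tfh) cells reach B cells and help them: Cxcr5, S1pr2, Icos, Cd40lg, Pdcd1, Btla, Cd200, Slamf6, Sh2d1a and P2rx7. The genes were chosen by name, and every peak whose deposited gene symbol was one of these names was taken. They made up 10 of the 19109 genes with a peak and held 82 of 282898 peaks. Of these peaks, 14 lay at a promoter, meaning the deposited section TSS, and 68 lay elsewhere in the gene and are called distal. The nearest edge of a TSS peak lay up to 999 bases before or 99 bases after a transcription start site. The peak itself could reach beyond these limits, and distances of peaks given below are to that edge. Over all libraries the 82 peaks held 3292 reads, 1473 of them at promoters and 1819 at distal peaks.

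The series holds 6 ATAC-seq libraries of mouse Tfh cells. ATAC-seq reads open chromatin through a transposase that enters where DNA is not packed and leaves an adaptor at each cut. The groups were Stat6 KO Tfh4, Stat6 KO Tfh214, Stat6 KO Tfh21, Stat6 WT Tfh4, Stat6 WT Tfh214 and Stat6 WT Tfh21, with 1 library each; Stat6 encodes a transcription factor activated by interleukin 4. All cells came from untreated C57BL/6 mice, 10 per genotype, were sorted by flow cytometry and entered the reaction as 50000 cells. The ages of the mice, the nature of the KO allele, the tissue and the sort markers behind the names Tfh4, Tfh214 and Tfh21 were not given in the sources used here. No group had a replicate, and genotype cannot be told apart from the animals or the library preparation.

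As background, a CD4 T cell that becomes a Tfh cell gains CXCR5, follows the chemokine CXCL13 into the follicle, and is held in the germinal centre with the help of the sphingosine receptor S1PR2. There it helps B cells through ICOS and CD40 ligand, and its contacts last long enough because SLAM family receptors signal through the adaptor SAP, the product of Sh2d1a. PD-1, BTLA, CD200 and the ATP-gated channel P2RX7 limit the response or the number of these cells.

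Promoter sequences of 3 genes are shown because the results below turn on the peaks at or near their start sites. For Pdcd1 the peak with the larger difference lies at −900 bases, outside the bases printed and searched. Sequences were available in the RefSeq table, build GRCm38.p6, for 6 of the 10 genes, in 7 windows that reach from 250 bases before to 50 bases after a start site. Printed here, 5′ to 3′ along the gene, are the 250 bases before the start site of Btla (chr16:45224087-45224336, plus strand), Cd200 (chr16:45409054-45409303, minus strand) and Pdcd1 (chr1:94052554-94052803, minus strand), with capitals for an E box.
Btla: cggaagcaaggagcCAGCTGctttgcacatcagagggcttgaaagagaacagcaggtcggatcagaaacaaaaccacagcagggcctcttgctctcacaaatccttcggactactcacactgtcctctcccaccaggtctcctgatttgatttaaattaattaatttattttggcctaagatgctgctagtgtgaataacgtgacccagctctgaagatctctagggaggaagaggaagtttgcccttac
Cd200: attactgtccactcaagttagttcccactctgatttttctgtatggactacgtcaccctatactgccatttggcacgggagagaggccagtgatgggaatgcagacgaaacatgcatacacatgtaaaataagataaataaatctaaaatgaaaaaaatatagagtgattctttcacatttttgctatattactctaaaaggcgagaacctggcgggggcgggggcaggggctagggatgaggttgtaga
Pdcd1: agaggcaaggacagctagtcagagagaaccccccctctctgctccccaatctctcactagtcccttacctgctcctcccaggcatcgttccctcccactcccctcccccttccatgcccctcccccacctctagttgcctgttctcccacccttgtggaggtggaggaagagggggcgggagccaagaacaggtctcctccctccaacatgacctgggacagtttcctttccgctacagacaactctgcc

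The 7 windows were searched on both strands for the STAT motif TTCNNNGAA, the STAT6 motif (TTC and GAA with 4 bases between them), the E box CAGNTG, the ETS core CCGGAA and the AP-1 motif TGANTCA. None of the 7 windows held the STAT motif or the STAT6 motif, which occurred in 8.3% and 6.95% of all 32851 windows in the table. The Btla window held 1 E box, which began 236 bases before the start site, while the Cd200 and Pdcd1 windows held none of the 5 motifs. E boxes occurred in 51.4% of all windows, the ETS core in 14.9% and the AP-1 motif in 7.81%. The deposited peaks are in mm9, so the windows were not placed on them; the length of the listed transcript matched the RefSeq start for Btla and Pdcd1 and not for Cd200. A match is a description of these letters, and its absence says nothing about a factor.

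The libraries held 798555 to 1373218 reads in peaks, the fewest in KO Tfh214. Peaks at start sites took 29.7%, 34.9% and 36.4% of reads in KO Tfh4, KO Tfh214 and KO Tfh21, against 27.6%, 31.0% and 31.5% in WT Tfh4, WT Tfh214 and WT Tfh21. Promoter levels of all genes therefore moved between libraries, so medians of all features and values under median-of-ratios scaling are given with the comparisons below. Stat6 itself had 54.9, 63.9 and 54.2 CPM (reads scaled to the library total in peaks) over 6 peaks in KO Tfh4, KO Tfh214 and KO Tfh21, against 42.2, 54.3 and 45.4 CPM in WT Tfh4, WT Tfh214 and WT Tfh21, and since the deleted part is unknown these levels check no label. T cell markers (9 of 9 genes with peaks) summed to 543 to 757 CPM in KO libraries and 554 to 622 CPM in WT libraries. Other Tfh markers (Bcl6, Maf, Il21, Tcf7, Tox2 and Ascl2, 6 of 6 genes with peaks) summed to 371 to 510 CPM in KO and 385 to 466 CPM in WT. The lowest sum of each genotype was in Tfh4. B cell markers (7 of 9 genes) summed to 127 to 143 CPM in KO and 139 to 181 CPM in WT, and myeloid markers (5 of 5) to 47.6 to 58.9 CPM in KO and 60.6 to 62.6 CPM in WT. Pooled over genotypes, Tfh4 stood at 1.22 times Tfh21 for the B cell markers (95% counting interval 1.05 to 1.42) and at 0.777 times for the Tfh markers (0.712 to 0.848). Under median-of-ratios scaling these were 1.48 (1.27 to 1.73) and 0.948 (0.868 to 1.03). CD8 T cell markers, of which 1 of 2 had peaks, had 12.1, 6.26 and 3.81 CPM in KO Tfh4, KO Tfh214 and KO Tfh21, and 13.1, 7.86 and 8.02 CPM in WT Tfh4, WT Tfh214 and WT Tfh21, a Tfh4 to Tfh21 ratio of 2.11 (1.08 to 4.37; scaled 2.58, 1.32 to 5.33) on 33 and 13 reads. No marker with a peak was at 0 in a library, and the part of other cells in the results was not tested.

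**Figure D1:**
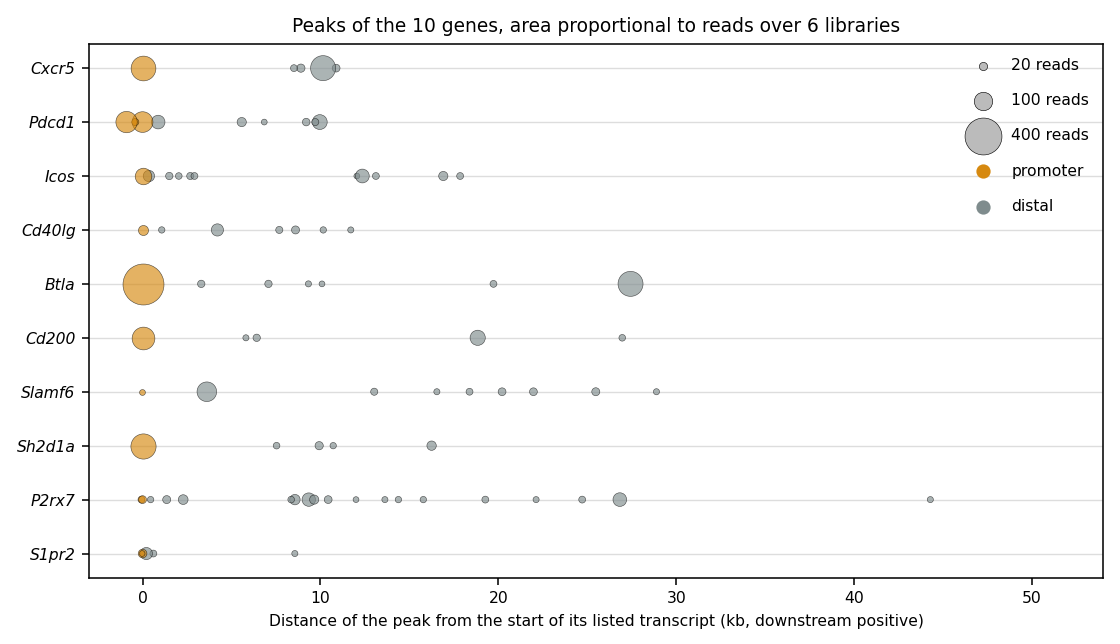
Peaks of the 10 genes by their distance from the start site of the listed transcript in kb (x axis, downstream positive). Each circle is 1 peak, its area is proportional to its reads over the 6 libraries, and promoter and distal peaks differ in colour. Btla has the strongest promoter peak (494 reads), Slamf6 and P2rx7 have nearly all reads away from the start site, and no distal peak lies upstream.

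The 10 genes differed in how open they were and in where. Levels per length, as the mean CPM per kb of peak over 6 libraries, were 30.6 ± 6.58 for Cxcr5, 29.7 ± 4.56 for Btla, 21.4 ± 3.1 for Pdcd1 and 17.2 ± 3.64 for Cd200 (SD over libraries of both genotypes and all populations). They were 12 ± 3.27 for Sh2d1a, 11.8 ± 1.36 for S1pr2, 10.9 ± 1.5 for Icos, 9.92 ± 2.25 for Slamf6, 7.47 ± 1.44 for P2rx7 and 7.43 ± 2.12 for Cd40lg. The median of all genes was 8.28 CPM per kb, with 8 of the 10 genes above it and P2rx7 and Cd40lg just below. Between neighbours in this order, the step from Btla to Pdcd1 was the only one larger than both SDs together.

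Promoters took 44.7% of the reads of the 10 genes, against 48.0% over all genes. The share was 72.5% at Sh2d1a, 66.3% at Btla, 59.5% at Pdcd1, 58.5% at Cd200 and 43.3% at Cxcr5. It was 31.7% at S1pr2, 27.4% at Icos, 21.0% at Cd40lg, 8.38% at P2rx7 and 4.37% at Slamf6. These shares depend on the limits of the section. Counted as distal were an S1pr2 peak 211 bases from the start, with 44 of its 101 reads, and an Icos peak 356 bases from it, with 38 of 296. A Pdcd1 peak at −900 bases counted as promoter. Slamf6 and P2rx7 were thus read almost wholly through peaks inside the gene, as the map of peaks by distance shows. Of the 68 distal peaks 48 were intronic and none lay upstream of its gene, because the 134835 peaks between genes carried no symbol and enter no gene here. The data are thin, since 61 of the 82 peaks held under 30 reads over all 6 libraries and 8 held at least 20 reads on average. Chromosome positions below are mm9, as deposited.

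**Figure D2:**
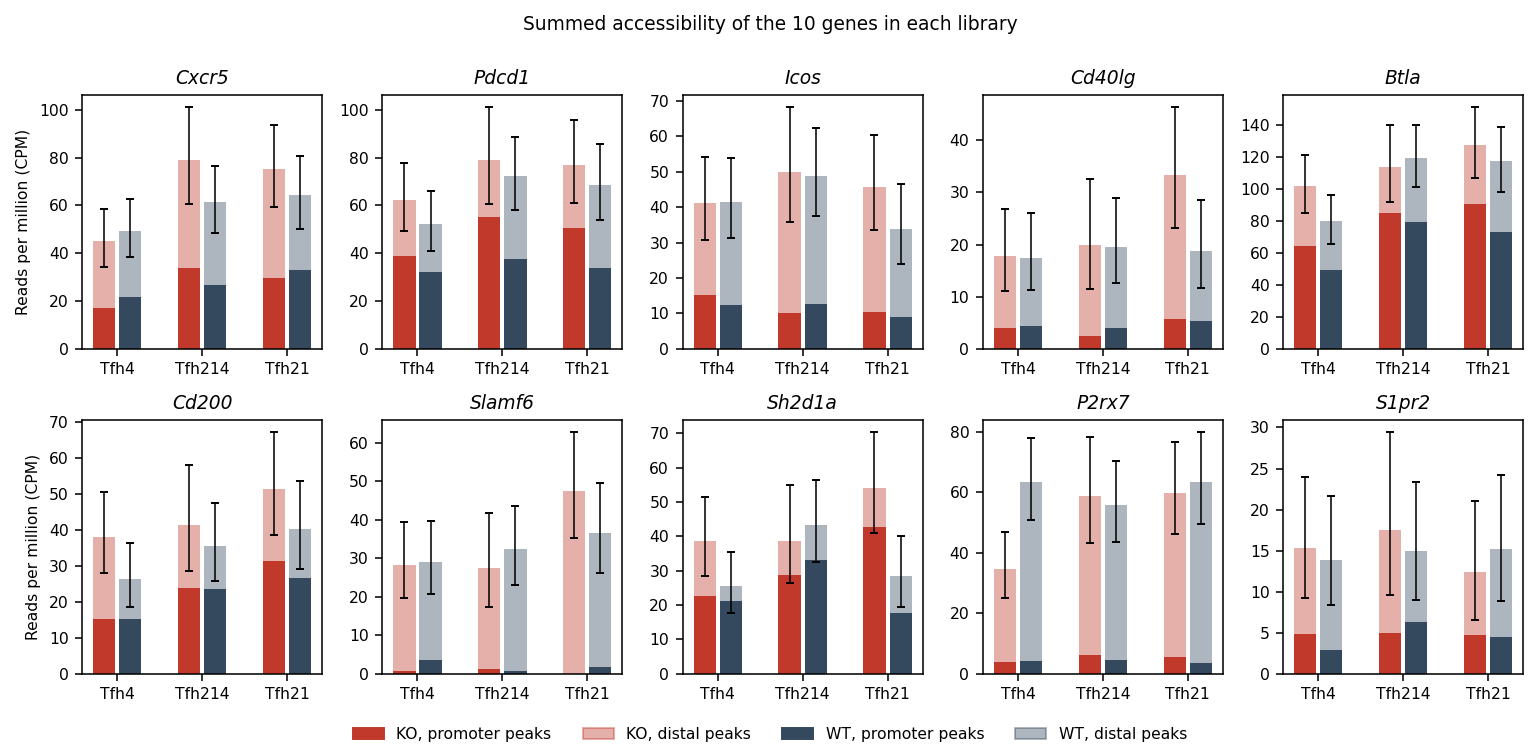
CPM (reads scaled to the library total in peaks, y axis) summed over all peaks of each gene in each library, with Tfh4, Tfh214 and Tfh21 on the x axis. Full bars are promoter peaks, pale bars distal peaks, and error bars are exact Poisson 95% intervals of the sum, which cover counting error only. Cxcr5, Pdcd1, Btla, Cd200, Cd40lg and Slamf6 have lower sums in both Tfh4 libraries than in both Tfh21 libraries.

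Differences between populations were addressed first by setting Tfh4 against Tfh21 over both genotypes. Summed over all peaks of a gene, 8 of the 9 genes with at least 20 reads on average were below 0 on the log2 scale in Tfh4, with a median log2 change of −0.43 against −0.12 for all genes. With median-of-ratios scaling 8 of the 9 were again below 0, and the medians were −0.15 for the members and 0.16 for all genes. In 6 of the 9 both Tfh4 libraries lay below both Tfh21 libraries, which was so for 30.7% of all genes tested. Such separations, here and below, were read from CPM only. With median-of-ratios scaling Pdcd1 stood at 1.01 in KO Tfh4 over KO Tfh21 and Cd40lg at 1.11 in WT Tfh4 over WT Tfh21. Neither gene was then separated, and the share of all genes was not computed under that scaling. No member passed an adjusted p of 0.05 (limma on log2(CPM + 1) with additive genotype and population terms, Benjamini-Hochberg over all genes; no gene at all, 0.0%, passed in either direction, and 1377 genes had an unadjusted p under 0.05; edgeR called 1 gene, not a member, and DESeq2 none). S1pr2, with 101 reads in all, was under the minimum. With only 2 libraries per population and 2 residual degrees of freedom, these p-values rest largely on a spread that limma borrows from all features. They do not measure spread over animals. In bulk libraries such as these, fewer cells of a type and less signal per cell cannot be told apart.

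At promoters alone, Btla and Cd200 fell in Tfh4 relative to Tfh21. They were 2 of the 5 genes with enough promoter reads, against 3.13% of all genes called lower and none called higher. Groups did not overlap for 3 of the 5 (Btla, Cd200 and Cxcr5), where 50.7% of all genes were lower and 0.988% higher without overlap. The median log2 change of the 5 promoters was −0.52, against −0.26 for all promoters tested. When libraries were scaled by the median ratio of strong peaks, which removes that common shift, the medians were −0.24 and 0.01 and neither gene was called.

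Btla, which encodes an inhibitory receptor of the CD28 family that binds HVEM on B cells, had its strongest peak at the start site (chromosome 16, 45223692 to 45225089). That peak had 64.6 CPM in KO Tfh4, 85.2 in KO Tfh214 and 90.4 in KO Tfh21, and 49.5 CPM in WT Tfh4, 79.4 in WT Tfh214 and 73.0 in WT Tfh21. Both Tfh4 libraries were thus below the other 4. The promoter log2 change was −0.52 (SE 0.14, adjusted p = 0.0324) for Tfh4 over Tfh21 and −0.53 (SE 0.14, adjusted p = 0.0273) for Tfh4 over Tfh214, in limma's fit, and Tfh4 was lower in both genotypes. This is the only promoter peak of Btla, so testing it as a single peak used the same reads and adds no support. There it was called in both comparisons in limma's fit (adjusted p = 0.0406 and 0.0307). It was 1 of the 8 peaks of these genes that were tested, against 1.31% and 1.98% of all peaks called lower. Median log2 changes over all peaks tested were −0.27 and −0.23. The Tfh4 to Tfh21 ratio of pooled reads was 0.696 (95% counting interval 0.556 to 0.871). It was 0.848 (0.677 to 1.06) with median-of-ratios scaling. The distal peak with most reads, at the end of the gene (45251880 to 45252550, 27.4 kb from the start), had 27.5 and 18.9 CPM in KO and WT Tfh4, against 28.5 and 34.7 CPM in KO and WT Tfh21, and the distal sum did not pass (log2 change −0.26, SE 0.25).

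Cd200, which encodes a membrane glycoprotein that signals to CD200R on other cells, lies less than 200 kb from Btla on the same chromosome. Its start-site peak (45408650 to 45409370) had 15.3 CPM in KO Tfh4, 23.8 in KO Tfh214 and 31.4 in KO Tfh21, and 15.3 CPM in WT Tfh4, 23.6 in WT Tfh214 and 26.7 in WT Tfh21. The order of populations was the same in both genotypes, and Tfh4 did not overlap the others. The promoter log2 change for Tfh4 over Tfh21 was −0.88 (SE 0.26, adjusted p = 0.0439 in limma's fit). Tested as a single peak, the same reads were not called (adjusted p = 0.0511 in limma's fit). The pooled ratio was 0.528 (0.346 to 0.798), while scaling by strong peaks gave 0.644 (0.422 to 0.973). For Tfh4 over Tfh214 the log2 change was −0.60 (SE 0.26, adjusted p = 0.162). The distal peaks of Cd200 did not share this, with 22.6 and 10.9 CPM in KO and WT Tfh4 against 20 and 13.4 CPM in KO and WT Tfh21, a ratio of 0.994 (0.624 to 1.59).

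The 2 promoter calls ended under median-of-ratios scaling, in edgeR's quasi-likelihood test, in DESeq2, without the variance trend, without a filter on low values, without a genotype term and with promoters taken as 2000 bases either side. They also ended without WT Tfh21, WT Tfh4 or KO Tfh21, the Cd200 call without KO Tfh4 too, and adjusted p ran from 0.0231 to 1 for Btla and from 0.0319 to 1 for Cd200 over 15 alternatives.

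**Figure D3:**
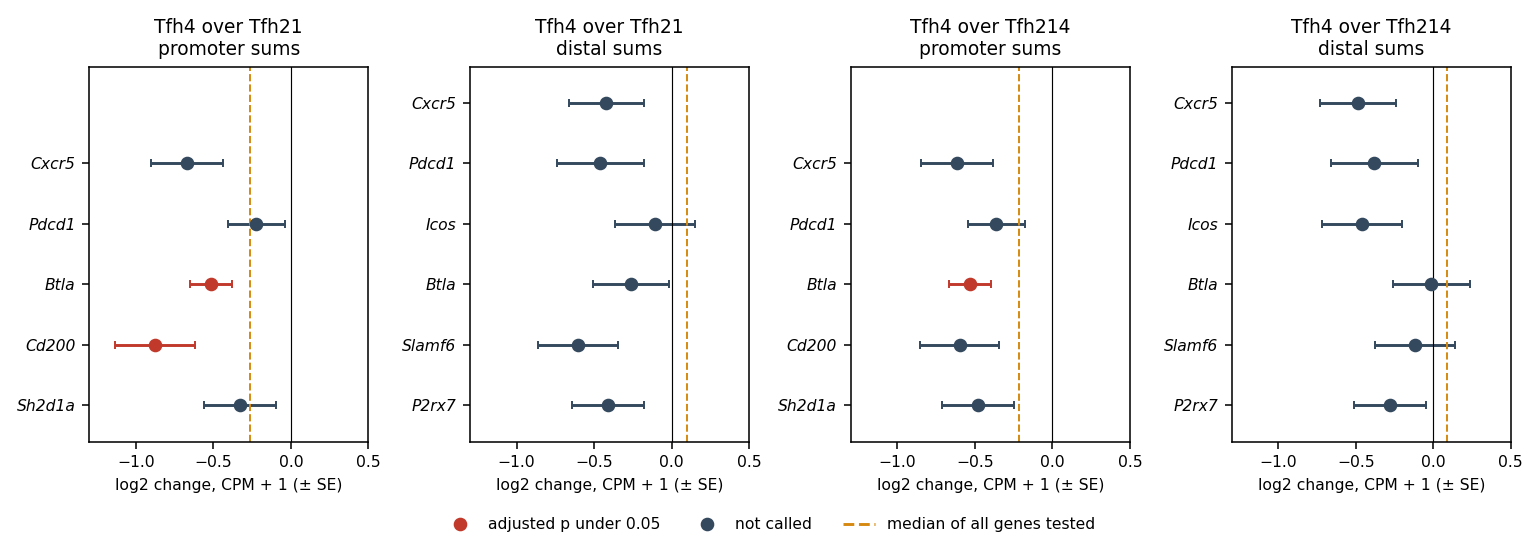
Log2 change of CPM + 1 (x axis) with its SE for Tfh4 over Tfh21 and Tfh4 over Tfh214, at promoters and at distal peaks, from the additive limma fit of 6 libraries. Each point is a gene with at least 20 reads on average, red points passed an adjusted p of 0.05, and the dashed line is the median of all genes tested. The distal points lie below 0 in both comparisons while the median of all genes lies at 0.10 and 0.09.

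At distal peaks the 6 genes tested were all below 0 for Tfh4 over Tfh21, with a median log2 change of −0.41, whereas the median of all 5184 genes with distal sums was 0.10. With median-of-ratios scaling 4 of the 6 were below 0, and the medians were −0.14 and 0.38. None passed the adjusted p (limma, 0.0% of all genes called in either direction, and none in edgeR or DESeq2; 594 genes had an unadjusted p under 0.05). With median-of-ratios scaling 642 genes were called higher and 1 lower, none of them a member. Groups did not overlap for 3 of the 6, Cxcr5, Pdcd1 and Slamf6, against 13.4% of all genes. The members' distal sum was 236 and 232 CPM in KO and WT Tfh4, against 313 and 278 CPM in KO and WT Tfh21. A distal median below that of all genes was not confined to the members. It was −0.209 in Tfh4 over Tfh21 for 24 other genes of the same contacts, listed below.

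Cxcr5, the chemokine receptor that leads cells to the follicle, had 45.2 CPM over its 5 peaks in KO Tfh4, 78.9 in KO Tfh214 and 75.2 in KO Tfh21. It had 49.5 CPM in WT Tfh4, 61.3 in WT Tfh214 and 64.1 in WT Tfh21. Both Tfh4 libraries were the lowest of the 6. Its start-site peak (chromosome 9, 44334474 to 44335058) and a peak in intron 1, 10.1 kb into the gene (44323625 to 44324358), were almost equally strong, with 180 and 184 reads in all. Tfh4 was lower at both, with a ratio to Tfh21 of 0.624 (0.425 to 0.911) at the start site and 0.679 (0.463 to 0.991) in the intron. The ratio to Tfh214 was 0.663 (0.448 to 0.977) at the start site and 0.637 (0.435 to 0.928) in the intron. With median-of-ratios scaling all 4 intervals included 1. The promoter log2 change of −0.67 (SE 0.23) for Tfh4 over Tfh21 had an adjusted p of 0.0757 in limma's fit.

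Slamf6, a SLAM family receptor that recruits SAP, had its strongest peak, with 113 of its 229 reads, in intron 1, 3.6 kb from the start (chromosome 1, 173851205 to 173851853). Its distal sum was 27.5, 26.3 and 47.6 CPM in KO Tfh4, KO Tfh214 and KO Tfh21, and 25.5, 31.5 and 34.7 CPM in WT Tfh4, WT Tfh214 and WT Tfh21. Tfh21 was the highest population in both genotypes. The Tfh4 to Tfh21 ratio was 0.645 (0.464 to 0.894); scaled by median of ratios it was 0.787 (0.566 to 1.09); the log2 change of −0.60 (SE 0.26) had an adjusted p of 0.381 in limma's fit. Its promoter peak (173847467 to 173847585) held 10 reads in all, and none of the 82 peaks held fewer.

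Pdcd1 and Icos each had an intron 1 peak with few reads in Tfh4. The Pdcd1 peak, 10.0 kb from the start (chromosome 1, 95938767 to 95939170), had 8.88 and 2.91 CPM in KO and WT Tfh4, against 14.3 and 10.7 CPM in KO and WT Tfh21, a ratio of 0.462 (0.229 to 0.901); scaled by median of ratios it was 0.564 (0.279 to 1.1). The Icos peak, 12.4 kb from the start (chromosome 1, 61047112 to 61047519), had 7.27 and 2.91 CPM in KO and WT Tfh4, against 13.3 and 10.7 CPM in KO and WT Tfh21, a ratio of 0.416 (0.196 to 0.84); scaled by median of ratios it was 0.507 (0.239 to 1.02). Icos, the gene of a costimulatory receptor needed for Tfh cells to form and persist, did not separate Tfh4 from Tfh21 as a whole. Over all peaks it had 41.2, 50.1 and 45.7 CPM in KO Tfh4, KO Tfh214 and KO Tfh21, and 41.5, 48.8 and 33.8 CPM in WT Tfh4, WT Tfh214 and WT Tfh21. Its Tfh4 to Tfh21 ratio was 1.05 (0.78 to 1.4). Its start-site peak (61034592 to 61034987) had 15.3 and 12.4 CPM in KO and WT Tfh4, above both Tfh21 libraries at 10.5 and 8.91 CPM, with a ratio of 1.43 (0.811 to 2.57), so the difference was within counting error.

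Tfh4 was also set against Tfh214. All 9 gene sums tested were below 0, with a median log2 change of −0.28 against −0.08 for all genes, and 6 of the 9 did not overlap, against 25.2% of all genes. With median-of-ratios scaling 7 of the 9 were below 0, and the medians were −0.05 and 0.16. None of the gene sums passed (limma, 0.0% of all genes in either direction, and none in edgeR or DESeq2; 1093 had an unadjusted p under 0.05), and of the 5 promoters Btla passed, where 2.2% of all promoters were called lower. With median-of-ratios scaling 183 gene sums and 134 distal sums were called higher and none lower, again with no member among them. The promoters of Btla, Cd200, Cxcr5 and Sh2d1a did not overlap between the populations, 4 of 5 against 42.9% of all genes. At distal peaks 3 of 6 did not overlap (Cxcr5, Icos and Pdcd1), against 11.8%, and none passed. The Btla call ended under median-of-ratios scaling, edgeR, DESeq2 and the other settings named above save the filter on low values, and without WT Tfh21, WT Tfh214, WT Tfh4 or KO Tfh21.

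Tfh214 and Tfh21 were the closest pair. The 9 gene sums had a median log2 change of −0.07, against −0.03 for all genes, with 4 above and 5 below 0. None passed the adjusted p at any level (limma, 0.0% of all genes called, and none in edgeR or DESeq2; 552 gene sums had an unadjusted p under 0.05). Icos was higher without overlap in Tfh214, 1 of 9 against 11.4% of all genes, and P2rx7 and Slamf6 were lower without overlap, 2 of 9 against 17.4%. The Icos ratio was 1.25 (0.926 to 1.68) and the Slamf6 ratio 0.727 (0.519 to 1.01). These comparisons share libraries with those of Tfh4, so they are not independent of them.

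**Figure D4:**
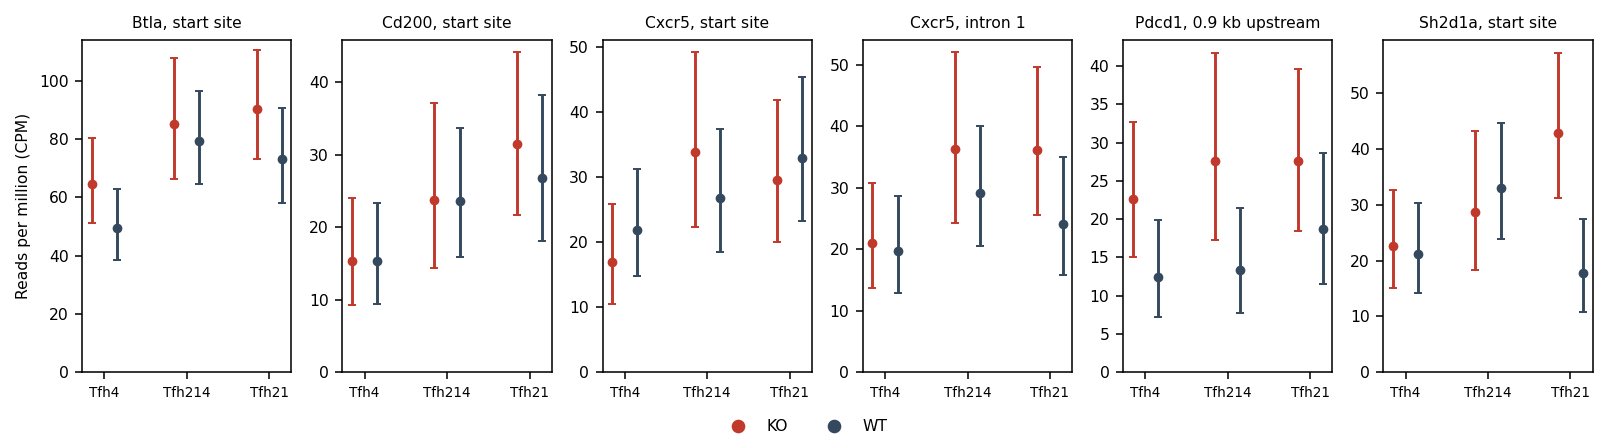
CPM (y axis) in single peaks of 5 genes in each library, KO left of WT within Tfh4, Tfh214 and Tfh21, with exact Poisson 95% intervals that cover counting error only. The Btla and Cd200 start-site peaks are lowest in both Tfh4 libraries, and the peak 0.9 kb upstream of Pdcd1 is at 22.6 to 27.6 CPM in KO libraries and 12.4 to 18.7 CPM in WT libraries.

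KO libraries were compared with WT libraries over the 3 populations. For gene sums 8 of the 9 genes tested were above 0, with a median log2 change of 0.15 against 0.07 for all genes. With median-of-ratios scaling 6 of the 9 were below 0, and the medians were −0.04 and −0.11, so the sign rests on the scaling. No member passed at gene, promoter, distal or single-peak level (limma, adjusted p under 0.05). Of all genes, 0.00924% were called higher and 0.0462% lower for gene sums, 0.0579% were called lower for distal sums, and 1202 gene sums had an unadjusted p under 0.05. edgeR and DESeq2 called none of the members either. No gene sum separated the genotypes without overlap, where 8.83% of all genes did so upward and 3.39% downward.

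Pdcd1, which encodes the inhibitory receptor PD-1, had the largest log2 change in KO among the 5 promoters tested. Its 3 promoter peaks had 38.8, 55.1 and 50.4 CPM in KO Tfh4, KO Tfh214 and KO Tfh21, and 32.0, 37.7 and 33.8 CPM in WT Tfh4, WT Tfh214 and WT Tfh21. KO was higher in each of the 3 populations and the genotypes did not overlap, 1 of the 5 promoters against 12.3% of all genes. The log2 change was 0.45 (SE 0.15, adjusted p = 0.0871 in limma's fit, where 1.02% of all promoters were called higher), against a median of 0.17 for all promoters. The ratio was 1.36 (1.07 to 1.74); scaled by median of ratios it was 1.2 (0.939 to 1.53).

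The difference at Pdcd1 lay mainly in a peak upstream of the gene, at −900 bases from the start site (chromosome 1, 95950031 to 95950480). It had 22.6, 27.5 and 27.6 CPM in KO Tfh4, KO Tfh214 and KO Tfh21, against 12.4, 13.4 and 18.7 CPM in WT Tfh4, WT Tfh214 and WT Tfh21. All KO libraries were above all WT libraries, 1 of the 8 single peaks tested against 13.4% of all peaks. The ratio was 1.75 (1.23 to 2.52); scaled by median of ratios it was 1.54 (1.08 to 2.22). The log2 change of 0.78 (SE 0.23) had an adjusted p of 0.0619 in limma's fit, where 0.857% of all peaks were called higher and the median of all peaks was 0.19. It stayed between 0.60 and 0.91 over 14 alternatives, with adjusted p of 0.0634 to 1. Reading each gene from its strongest peak alone tested fewer features, and gave this peak an adjusted p of 0.0493 in limma's fit. That setting gives no support, because the peak was picked partly by its KO reads. It held 134 reads in all against 126 at the start site. Its WT mean was lower than there, at 14.8 against 16.9 CPM, and its KO mean higher, at 25.9 against 20.7 CPM. Its reads in WT Tfh4, WT Tfh214 and WT Tfh21 were 17, 17 and 21, so KO also helped it past the minimum mean of 20. At the start site itself (95948909 to 95949449) the levels were 16.1, 25.0 and 20.9 CPM in KO Tfh4, KO Tfh214 and KO Tfh21, and 16, 20.4 and 14.3 CPM in WT Tfh4, WT Tfh214 and WT Tfh21, which overlapped. The distal peaks of Pdcd1 did not separate the genotypes, at 23.4, 23.8 and 26.6 CPM in KO Tfh4, KO Tfh214 and KO Tfh21, against 20.4, 34.6 and 34.7 CPM in WT Tfh4, WT Tfh214 and WT Tfh21, with a ratio of 0.835 (0.616 to 1.13).

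Cd200 showed its KO difference away from the promoter. Its 4 distal peaks summed to 22.6, 17.5 and 20 CPM in KO Tfh4, KO Tfh214 and KO Tfh21, and to 10.9, 11.8 and 13.4 CPM in WT Tfh4, WT Tfh214 and WT Tfh21. The genotypes did not overlap in this sum, and the ratio was 1.71 (1.15 to 2.56); scaled by median of ratios it was 1.5 (1.01 to 2.26). This sum was under the minimum for the fit, so it has no p. Of the 6 distal sums above the minimum none separated the genotypes, where 4.49% of all distal sums tested were higher and 7.47% lower without overlap. The promoter of Cd200 did not show it, with a KO to WT ratio of 1.07 (0.766 to 1.49). The strongest distal peak, in the 3′ UTR exon (chromosome 16, 45389964 to 45390329), had 13.7, 7.51 and 13.3 CPM in KO Tfh4, KO Tfh214 and KO Tfh21, against 6.55, 9.44 and 8.91 CPM in WT Tfh4, WT Tfh214 and WT Tfh21, which overlapped.

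P2rx7, whose channel responds to extracellular ATP, was the gene with the lowest KO to WT ratio. Its 17 distal peaks summed to 30.7, 52.6 and 54.2 CPM in KO Tfh4, KO Tfh214 and KO Tfh21, against 59.0, 51.1 and 59.7 CPM in WT Tfh4, WT Tfh214 and WT Tfh21. KO Tfh4 was the low library, and the other 5 lay within 51.1 to 59.7 CPM. The pooled distal ratio was 0.785 (0.628 to 0.977), with a log2 change of −0.34 (SE 0.19, adjusted p = 0.588 in limma's fit). For Tfh4 alone the KO to WT ratio over all peaks was 0.548 (0.371 to 0.798); scaled by median of ratios it was 0.488 (0.331 to 0.711). The distal peak with most reads, in intron 12 (chromosome 5, 123127261 to 123128604), was lower in Tfh4 than in Tfh214, at 3.23 and 7.28 CPM in KO and WT Tfh4 against 8.77 and 13.4 CPM in KO and WT Tfh214, a ratio of 0.462 (0.221 to 0.931); scaled by median of ratios it was 0.541 (0.259 to 1.09). The strongest promoter peak (123100370 to 123100757) held 18 reads in all.

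Within single populations, a KO library was set against its WT library by a 1.5-fold limit, which compares those libraries and not the genotypes. In Tfh4, Sh2d1a was past it upward (1.52, 0.963 to 2.42) and P2rx7 downward among 9 genes measured, and Sh2d1a was not past it with median-of-ratios scaling; 5.06% of all genes were past it upward and 7.83% downward. No member was past it in Tfh214, against 5.11% of all genes upward and 6.91% downward. In Tfh21, Cd40lg and Sh2d1a were past it upward and none downward, against 5.4% and 5.28% of all genes.

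**Figure D5:**
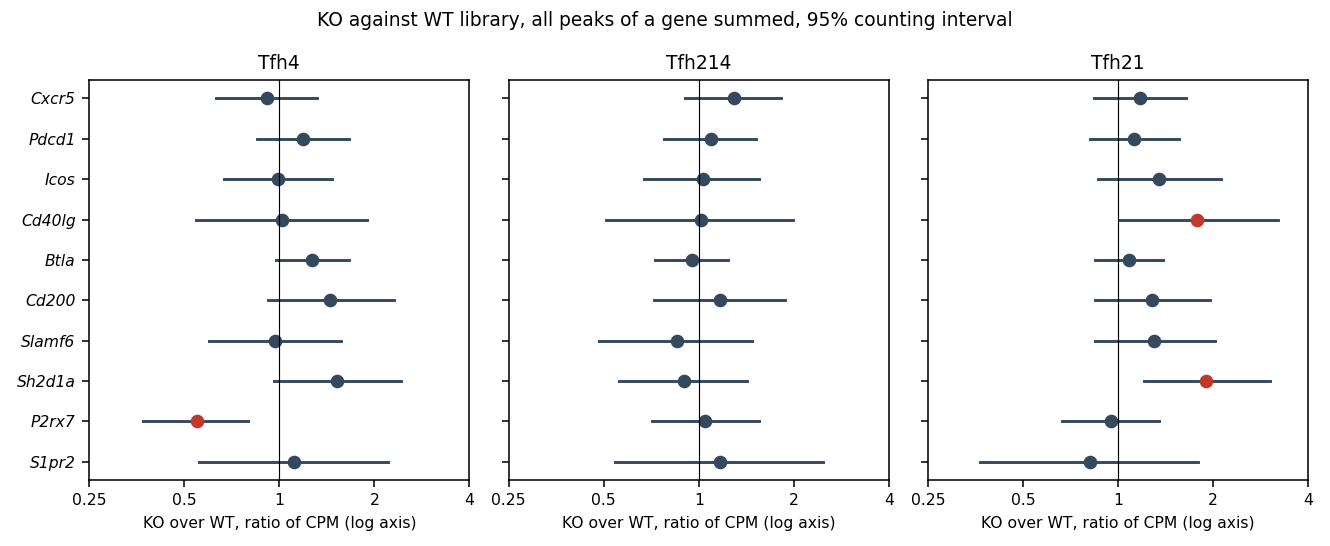
Ratio of CPM in the KO library over the WT library of the same population (x axis, log scale), summed over all peaks of a gene, with exact binomial 95% intervals that cover counting error only. Red points have an interval that leaves out 1: P2rx7 in Tfh4 (0.548), and Cd40lg (1.78) and Sh2d1a (1.90) in Tfh21.

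Sh2d1a, the gene of the adaptor SAP, was past the 1.5-fold limit in both Tfh4 and Tfh21. Its start-site peak (chromosome X, 39855448 to 39856305) had 22.6, 28.8 and 42.8 CPM in KO Tfh4, KO Tfh214 and KO Tfh21, and 21.1, 33.0 and 17.8 CPM in WT Tfh4, WT Tfh214 and WT Tfh21. KO Tfh21 was the highest library and WT Tfh21 the lowest. The promoter ratio of KO over WT was 2.4 (1.39 to 4.3) in Tfh21, 0.872 (0.501 to 1.48) in Tfh214 and 1.07 (0.614 to 1.86) in Tfh4. The difference between these ratios was not tested. In Tfh4 the KO excess lay at distal peaks instead, with 16.1 CPM in KO Tfh4 and 4.37 CPM in WT Tfh4, that is 20 and 6 reads. The strongest of those peaks, annotated to a 5′ UTR exon 16.2 kb from the start (39871989 to 39872668), held 26 reads in all, 8 of them in KO Tfh4. Over the populations the log2 change of the gene sum was 0.45 (SE 0.19, adjusted p = 0.381 in limma's fit).

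Cd40lg, whose product activates B cells through CD40, lies on chromosome X as well. It had 17.8, 20 and 33.3 CPM in KO Tfh4, KO Tfh214 and KO Tfh21, and 17.5, 19.7 and 18.7 CPM in WT Tfh4, WT Tfh214 and WT Tfh21. KO Tfh21 stood alone above a narrow range of the other 5, and its ratio to WT Tfh21 was 1.78 (1.01 to 3.22); scaled by median of ratios it was 1.51 (0.855 to 2.73). The whole of chromosome X took 1.21%, 1.21% and 1.38% of reads in KO Tfh4, KO Tfh214 and KO Tfh21, and 0.958%, 1.21% and 1.13% in WT Tfh4, WT Tfh214 and WT Tfh21, so KO Tfh21 also had the highest share there; its part in the Sh2d1a and Cd40lg values was not tested. The strongest Cd40lg peaks, in intron 2 (54469527 to 54469810) and at the start site (54464794 to 54465440), held 44 and 30 reads in all.

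S1pr2, which keeps Tfh cells in the germinal centre, was too weakly covered to compare. Its 5 peaks had 15.3, 17.5 and 12.4 CPM in KO Tfh4, KO Tfh214 and KO Tfh21, and 13.8, 14.9 and 15.1 CPM in WT Tfh4, WT Tfh214 and WT Tfh21, with a ratio of 1.02 (0.674 to 1.54). The genotypes overlapped. Its strongest peaks lay in a 5′ UTR exon 211 bases from the start (chromosome 9, 20780631 to 20781027, 44 reads) and at the start site (20781027 to 20781265, 22 reads). The exon peak had 9.69, 10.0 and 5.71 CPM in KO Tfh4, KO Tfh214 and KO Tfh21, against 5.83, 4.72 and 3.56 CPM in WT Tfh4, WT Tfh214 and WT Tfh21, with a ratio of 1.76 (0.93 to 3.41).

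The remaining genes held close to equal sums in the genotypes. The KO to WT ratio was 1.11 (0.909 to 1.35) for Cxcr5, 1.09 (0.939 to 1.26) for Btla, 1.08 (0.853 to 1.37) for Icos and 1.07 (0.818 to 1.4) for Slamf6. With median-of-ratios scaling these ratios were 0.976, 0.957, 0.951 and 0.942, in the same order of genes, so their side of 1 rests on the scaling. Each interval includes 1 and leaves room for the differences at its bounds. For Cxcr5 the intron 1 peak had 21.0, 36.3 and 36.2 CPM in KO Tfh4, KO Tfh214 and KO Tfh21, and 19.7, 29.1 and 24.0 CPM in WT Tfh4, WT Tfh214 and WT Tfh21, higher in KO in each pair but overlapping. In Tfh4 this was 26 reads in KO and 27 in WT, and with median-of-ratios scaling the direction of that pair reverses.

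Other genes of the same contacts were read from a list of 37: ligands and counter-receptors, SLAM family and SAP signalling, migration receptors, costimulation and coinhibition, and purinergic genes. Of these, 30 had enough reads as gene sums, and none was called in any comparison (limma, adjusted p under 0.05). Under alternatives single genes were called: Entpd1 higher in Tfh4 than in Tfh214 with median-of-ratios scaling and lower in Tfh214 than in Tfh21 without KO Tfh4, and Ptpn11 lower in Tfh4 than in Tfh21 without WT Tfh4. Of 16 with enough promoter reads, 1 was called, Pik3r1, a regulatory subunit of PI3 kinase, lower in Tfh4 than in Tfh21 (log2 change −0.51, SE 0.15, adjusted p = 0.0431, a call kept with a pseudocount of 0.5, without WT or KO Tfh214 and with the strongest peak alone, and lost otherwise). Of 24 with distal sums none was called. With median-of-ratios scaling Cd274 was called higher in Tfh4 than in Tfh21, as were 642 of all 5184 distal sums. For Entpd1, the same scaling called 183 of all 10825 gene sums higher in Tfh4 than in Tfh214. For Pik3r1, 3.13% of all promoters were called lower in Tfh4 than in Tfh21 in the main fit. In Tfh4 over Tfh21 the lowest gene sums were Ccr7, the lymph node homing receptor (−0.58, SE 0.25), and Tigit, an inhibitory receptor (−0.56, SE 0.16), and the highest were Cd274, which encodes PD-L1 (0.25, SE 0.20), and Icosl, which encodes the ICOS ligand (0.19, SE 0.31). In KO over WT they were Cd200r1 (−0.09) and Pik3cd (−0.03) at the low end, and Selplg (0.43) and Gpr183 (0.39) at the high end, none of which passed. The median log2 change of the 30 was 0.11 in KO over WT, against 0.07 for all genes, and −0.21 in Tfh4 over Tfh21, against −0.12. For the 24 distal sums the median was −0.209 in Tfh4 over Tfh21, against 0.099 for all distal sums tested. In Tfh4 over Tfh214 it was −0.106, against 0.091. These listed genes thus shared the direction of the members at distal peaks.

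The sum of the 10 genes was 423, 526 and 584 CPM in KO Tfh4, KO Tfh214 and KO Tfh21, and 399, 503 and 486 CPM in WT Tfh4, WT Tfh214 and WT Tfh21. Tfh4 was lowest in both genotypes, with a ratio to Tfh21 of 0.769 (0.707 to 0.836); scaled by median of ratios it was 0.938 (0.862 to 1.02). Among 10816 other genes, those whose log2(CPM + 1) followed this sum most closely over the 6 libraries were Gnpnat1 (Pearson r 0.996), Mir8120, Hdac2, Bdh1 and Ppp1r2 (0.991). With 6 points that share depth and start-site share this is a description, and 472 genes had an r of at least 0.9.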

How the data were processed

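The authors deposited 1 list of peaks with CPM values in 6 libraries, scaled to the reads in listed peaks. The submitters' processing notes name Bowtie 1.3.0, MACS2 2.0 and HOMER, with mm9 as the build, and give no roles. The sources used here do not say whether peaks were called on pooled libraries, how duplicates were treated or whether cut sites were shifted. Each peak, per the file headers, has a position, section and distance to a start site; the column of gene IDs held the symbols used here. Whole reads were recovered from the CPM steps, at least 99.9989% of values in each library lying within 0.02 of a whole number.

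limma 3.58.1 was fitted in R 4.3.3 to log2(CPM + 1) with additive genotype and population terms and a variance trend, over all features with a mean of at least 20 reads, with Benjamini-Hochberg adjustment over all of them (2 residual degrees of freedom). Log2 changes on this scale understate the change of low features. The fit was run on simulated Poisson counts with planted changes, without added spread between libraries or the shift in start-site share. That run cannot show how the fit behaves where these are present, as here. Ratios of pooled reads carry exact binomial 95% intervals and levels exact Poisson intervals, which cover counting error alone. They would be too narrow even for that if copies made by PCR were kept as reads. Alternatives were median-of-ratios scaling over strong peaks, edgeR 4.0.16 and DESeq2 1.42.0 on recovered reads, other pseudocounts, filters and promoter limits, no variance trend, and each library left out. Named peaks were the strongest promoter and distal peak of each gene and those with at least 20 reads in the higher pooled group whose interval left out 1. All peaks of the 10 genes were searched in every comparison without correction for their number. Some such intervals would leave out 1 by counting error alone, and the share of all peaks was not computed. Listed genes were named if called, otherwise the 2 highest and 2 lowest. The 10 genes, the lists and the tests were chosen with earlier results of these data known. Tables were made with Python 3.11.15, numpy 2.4.6, scipy 1.17.1, pandas 2.3.3 and matplotlib 3.10.9.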

Additional observations from a re-analysis of the deposited data

How the results depend on the processing

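The limits are depth, with 798555 reads in the least deep library, and the absence of replicates. The fit itself pairs KO and WT libraries by population; the labels give no replicate numbers that could serve as a further block. Over 1632 single effects recomputed under the alternatives, 106 changed sign, none of them called. Taking only the strongest peak of each gene gave 1 call for KO over WT, the Pdcd1 peak picked partly by its KO reads. It gave 2 for Tfh4 over Tfh21 and 1 for Tfh4 over Tfh214, where gene sums gave 0 in each comparison. For promoters (2 calls in Tfh4 over Tfh21, 1 in Tfh4 over Tfh214) and for single peaks (1 and 1), both comparisons gave 0 with median-of-ratios scaling, edgeR, DESeq2, no variance trend and no genotype term. Without a filter, promoters gave 0 in Tfh4 over Tfh21 and single peaks 0 in both, a minimum of 10 reads left 1 promoter call in Tfh4 over Tfh21, and promoters of 2000 bases gave 0 in both. Leaving out 1 library at a time gave 0 to 2 calls for gene sums in Tfh4 over Tfh21 (2 without WT Tfh4, Cxcr5 and P2rx7), 0 to 2 for promoters and 0 to 3 for single peaks (3 without WT Tfh214 or KO Tfh214), and 0 to 1 for promoters and single peaks in Tfh4 over Tfh214. The remaining counts of calls among the 10 genes stayed at 0 there; a population left with 1 library is assumed to vary like the others. Genes past 1.5-fold in KO over WT numbered 1 in place of 2 in Tfh4 with median-of-ratios scaling, which kept P2rx7. With the strongest peak alone the number in Tfh4 was also 1, but this was the Pdcd1 peak and not Sh2d1a or P2rx7. In Tfh214 that setting gave 1 in place of 0, again the Pdcd1 peak. In Tfh21 it left the number at 2, with Cxcr5 in place of Cd40lg beside Sh2d1a. Over all genes, median-of-ratios scaling gave 3 higher and 252 lower gene sums in KO over WT, against 1 and 5 in the main fit, and 560 higher and 1 lower in Tfh4 over Tfh21, against 0 and 0. For promoters it gave 0 calls in Tfh4 over Tfh21, against 222. The cause was not tested.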
